A study of Mus musculus with 4 samples.

Results

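Of the 9731 CpGs that the authors listed as differing between the frontal cortex of E3 and CT mice, 2434 carried a mark for a CpG island, and these 2434 island CpGs are described here. The other 7297 listed CpGs lay outside islands. The study asked whether estriol (E3), the estrogen that the human fetus and placenta make together in large amounts, leaves lasting marks on the brain of female offspring when it is given before birth. All mice were wild type CD-1 mice, an outbred stock. Pregnant females of the E3 group received E3 in DMSO (50 µl at 0.46 mg/ml) from an implanted osmotic pump, which ran for 7 days from gestation day 9. Pregnant females of the CT group received the DMSO vehicle by the same kind of pump. The DNA came from daughters, labelled as 8 weeks old, while the study's text describes its brain expression work on older offspring and gives no age for brain methylation. The frontal cortex and the hippocampus each gave 1 E3 and 1 CT library, 4 libraries in all, and neither the labels nor the methods say whether a library held 1 mouse or several. Levels below therefore stand without replicates, and a test between the E3 and the CT library of a tissue says nothing of the spread among mice.

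CpG islands are stretches of DNA that kept many CpG dinucleotides while most of the mammalian genome lost them. They cover the start sites of most housekeeping genes and of many developmental genes, and most of them carry little methylation in any tissue. Islands of imprinted genes and of the inactive X chromosome are among the known exceptions, since only the copy from a given parent, or only the inactive copy, is methylated there.

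The sequence around the listed sites was that of islands. In the window of 301 bases around a site the median GC content was 67.4% for island CpGs and 51.2% for listed CpGs outside islands, and the median number of CpGs was 27 and 8. The ratio of observed to expected CpGs had a median of 0.83 and 0.42. Of the island CpGs 92.8% lay in a CpG-rich window (GC content above 50% and a ratio above 0.6), as did 10.3% of the others. The median distance to the nearest RefSeq transcription start was 345.5 bases, and 72.5% of the island CpGs lay within 1000 bases of one.

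The sites fell into 1819 runs, a run being island CpGs at most 500 bases apart, since the deposited mark does not name the island. A single CpG made up 1536 runs, and 111 runs held at least 3 CpGs. Sequences of 4 long runs are shown because each differed between the libraries at many adjacent CpGs. They were read from the forward strand of GRCm38 (mm10), and the capitals mark the listed CpGs. Runs A and B lie outside RefSeq genes, the Nnat run spans the end of a coding exon of that gene, which lies within an intron of Blcap, and the Smarca5 run ends 3 bases from the transcription start.
Run A, chr9:66806088-66806179: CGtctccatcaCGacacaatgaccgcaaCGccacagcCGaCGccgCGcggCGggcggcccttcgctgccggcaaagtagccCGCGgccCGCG
Run B, chr9:99947394-99947544: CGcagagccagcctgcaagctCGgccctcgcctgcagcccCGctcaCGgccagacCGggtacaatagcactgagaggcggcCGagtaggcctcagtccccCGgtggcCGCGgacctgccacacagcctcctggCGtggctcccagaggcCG
Nnat, chr2:157560499-157560549: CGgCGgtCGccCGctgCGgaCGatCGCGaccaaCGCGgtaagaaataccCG
Smarca5, chr8:80739462-80739556: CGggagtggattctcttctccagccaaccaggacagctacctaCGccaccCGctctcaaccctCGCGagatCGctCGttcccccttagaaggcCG

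A feature of many short runs was the 4-base sequence CCGG, at which MspI cuts, one of the 2 enzymes used to make the libraries. Examples are shown for the agrin gene Agrn, the estrogen receptor corepressor gene Nrip1 and genes of several other lists, with CCGG in capitals in the middle of 30 bases. All 8 sites were lower in E3, with levels between 0% and 2.94% against levels between 17.0% and 46.2% in CT. They were chosen after their values were seen.
Agrn, chr4:156198005-156198034: cccctgccgatggCCGGtcagcggtgactg
Nrip1, first site, chr16:76373117-76373146: gacttcgcggcggCCGGgtccctcccctcg
Nrip1, other site, chr16:76372656-76372685: cttggcggctgcgCCGGccgggcccgcgag
Jund, chr8:70698692-70698721: tgggcgtggtgacCCGGccaaaccgcgttc
Tbp, chr17:15499813-15499842: gaactgctggtacCCGGcccgctcgtttcc
Ptch1, chr13:63572461-63572490: tcctctacccaagCCGGgcggtgaactcaa
Olig1, chr16:91270444-91270473: gtgctgctggcacCCGGtgccgtgggaccc
Rpl8, chr15:76904449-76904478: aggtaggagggcaCCGGcgggagttaagca

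The last set holds sites called in both tissues, first 5 in the same direction and then 4 in opposite directions. The capitals mark the listed CpG in the middle of 30 bases. The Tuba3a and Mad2l1 windows overlap annotated 5′ ends of the transcripts, and the other CpGs lie in coding sequence.
Wnt7b, chr15:85543759-85543788: gatgccgtagcggaCGtccgctgagcagcc
Uhrf1bp1, chr17:27887487-27887516: ggccaaggcgagccCGtgcccttgaggagc
Camk2b, chr11:5972363-5972392: taggcgatgcatgcCGcatcctcgccaatg
Tuba3a, chr6:125285990-125286019: ctcagacgccgcctCGgccgttcctcacca
Mad2l1, chr6:66535434-66535463: agttatttttgaacCGggtggcggggaata
Bcl11b, chr12:107916655-107916684: ctcgcctgcgagcaCGcatggtcgcacagc
Col6a2, chr10:76596723-76596752: gtggaagttctgctCGcccagccgctccga
Pxdn, first site, chr12:30002471-30002500: tggcagcggcatgaCGtccctgctcatgaa
Pxdn, other site, chr12:30002702-30002731: tgagaacgagagccCGataccatgctttct

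Methylation of the island CpGs was low in both frontal cortex libraries, and lower in E3. The mean level was 8.87% in E3 and 22.6% in CT, and the medians were 3.23% and 20%. The quartiles were 0% and 12.5% in E3 and 15.9% and 28.2% in CT. In E3 696 sites (28.6%) were at 0%, and in CT 126 sites (5.18%). Outside islands 26.6% of listed CpGs were at 0% in E3 and 17.0% in CT. Only 78 island CpGs reached 60% in a library, and none reached it in both. The difference between the libraries had a median of 19.2 percentage points in size, with quartiles of 15.8 and 26.0, where that outside islands was 38.2. A difference of at least 50 points was found at 73 island CpGs, of which 54 were lower and 19 higher in E3.

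These differences describe how the list was made and carry no test. The authors listed only sites they had called, which differ by 10 points or more, and the files show a further limit. In every listed site of the frontal cortex the higher of the levels was at least 15%, the lowest being 15.04% in islands and 15.09% outside them. The number of reads behind the frontal cortex levels is unknown. Island CpGs that differed little, or that were methylated to under 15% in both libraries, are not in the list.

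Of the 2434 island CpGs 1964 (80.7%) were lower in E3 (95% Wilson interval over sites, 79.1% to 82.2%). The background was 63.7% for all listed CpGs and 58% for those outside islands. For the 1138 listed promoter CpGs outside islands the share was 72.7%. Intervals over sites cover the counting of sites only, and nearby sites share reads.

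The direction differed with the sequence at the site. In islands 1228 CpGs (50.5%) lay within CCGG, and outside islands 22.2% did. Within CCGG 1166 island CpGs were lower and 62 were higher in E3 (94.95% lower), with a mean of 3.88% in E3 and 23.2% in CT. The other 1206 island CpGs were split into 798 lower and 408 higher (66.2% lower), with means of 13.9% and 22.0%. Outside islands the shares lower were 64.9% within CCGG and 56.03% elsewhere. TCGA, the site of the other enzyme, held 125 island CpGs (5.14%). The frontal cortex list does not give the sites that were measured and not listed, so the share of CCGG among measured island CpGs cannot be given for that tissue. In the hippocampus 10.1% of CpGs in CpG-rich windows lay within CCGG. What part the cut site has in the lower levels was not tested.

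**Figure D1:**
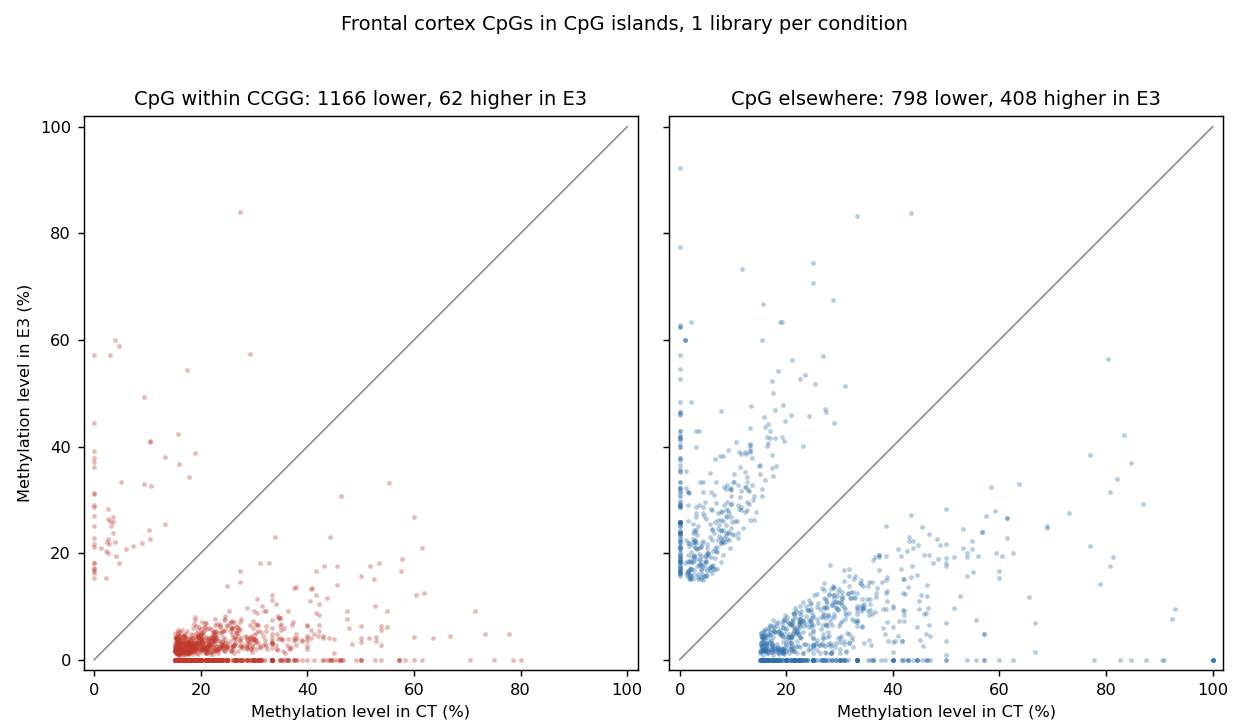
Each point is 1 listed island CpG of the frontal cortex, with its methylation level (%) in CT on the horizontal axis and in E3 on the vertical axis. The left panel holds the 1228 CpGs within CCGG, which crowd along the bottom (1166 below the diagonal), and the right panel the other 1206, of which 408 lie above it. The empty band along the diagonal and in the lower left corner is that of unlisted sites.

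The split by CCGG was seen in each part of a gene. Of the 1610 island CpGs in promoters, 998 lay within CCGG and 96.1% of these were lower in E3, beside 67.2% of the other 612. In exons outside promoters the shares were 86.0% of 86 and 63.2% of 318. In introns outside both they were 91.5% of 71 and 67.2% of 131. For CpGs with no gene named in the deposited columns they were 93.2% of 73 and 67.6% of 145. Chromosome X had a smaller gap, and its 30 CpGs within CCGG and its 288 others had shares of 83.3% and 78.8%.

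**Figure D2:**
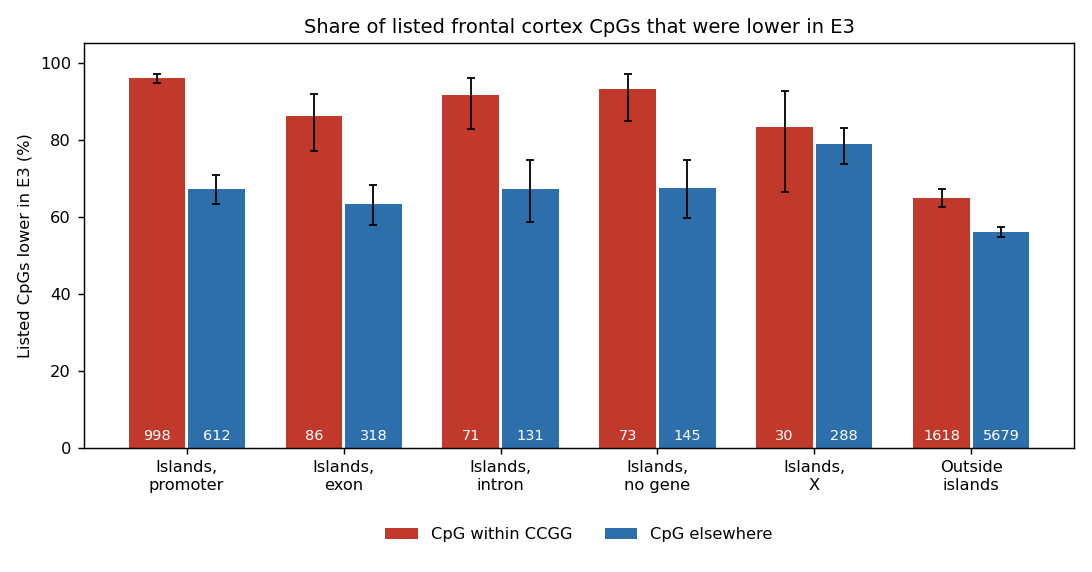
Bars give the share (%) of listed frontal cortex CpGs that were lower in E3, for island CpGs by gene part and on chromosome X and for listed CpGs outside islands, with 95% Wilson intervals over sites and the number of sites in each bar. The bar of CpGs within CCGG is the higher one in all 6 pairs, and on chromosome X the intervals overlap.

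In all, 1829 genes were named for an island CpG and 1462 for an island CpG in their promoter. Of the latter 1296 had only lower sites in E3, 129 only higher sites and 37 both. Most of these genes, 1265, rested on 1 site.

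Neighbouring island CpGs moved together over short distances. Of 264 neighbouring pairs at most 20 bases apart 262 (99.2%) had the same direction, of 118 pairs 21 to 50 bases apart 94.1%, and of 74 pairs 51 to 100 bases apart 83.8%. CpGs this close often lie on the same reads. Pairs more than 5000 bases apart had the same direction at 76.3% of 1706, in a list where 80.7% of island CpGs were lower in E3. Among pairs without a CCGG site, the share went from 99.6% at up to 20 bases to 57.1% of 28 pairs at 251 to 500 bases and 59.5% of 294 pairs beyond 5000 bases.

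**Figure D3:**
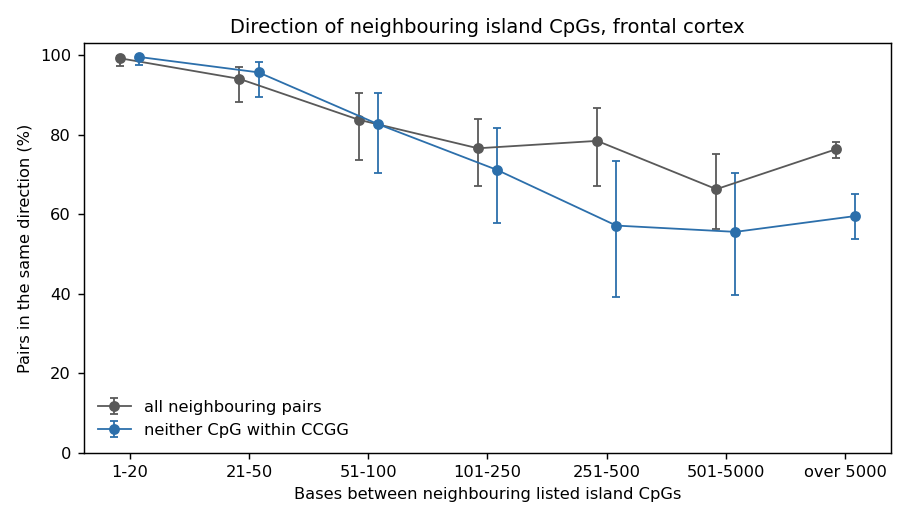
Points give the share (%) of neighbouring listed island CpGs with the same direction in the frontal cortex, against the bases between them, with 95% Wilson intervals over pairs. Pairs up to 50 bases apart are above 90%, and pairs without CCGG end between 55.6% and 59.5% beyond 250 bases.

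Runs of at least 3 CpGs looked unlike the single sites. They held 554 CpGs, of which 10.3% lay within CCGG and 61.9% were lower in E3, where single sites gave 68.6% and 88.1%. All CpGs were lower in 59 of the 111 runs, all were higher in 32, and 20 were mixed. In 87 runs the lowest level of the higher library was above the highest level of the other. Each CpG was listed for a difference of at least 10 points and neighbours often share reads, so this count is partly set by the listing. It was not made for runs outside islands. Chromosome X held 36 of the runs, of which 24 were lower throughout and 3 higher throughout.

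The largest differences toward lower levels in E3 were in the gene-free runs of chromosome 9. Run A (chr9:66806088-66806178, 8743 bases from the start of Aph1b) had 11 listed CpGs, with levels from 0% to 32.9% in E3 and from 56.8% to 100% in CT, and means of 16.8% and 74.6%. Its last 4 CpGs were at 0% in E3 and at 100% in CT. Run B (chr9:99947394-99947543, 3685 bases from the small RNA gene Gm23594) also had 11, with levels from 9.09% to 38.5% in E3 and from 50.0% to 86.8% in CT. The libraries did not overlap in either run, as in 87 of the 111 runs.

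Nup153, a nuclear pore gene, had 3 CpGs in an intron at 0% in E3 and at a mean of 43.7% in CT. Prom1, which encodes the stem cell surface protein prominin-1, had 3 CpGs in its 5′ untranslated region at 0% in E3 and at 40% in CT. Zswim9, named for its number of CpGs, had 8 in coding sequence (chr7:13261257-13261462), with levels from 6.45% to 21.6% in E3 and from 28.6% to 59.4% in CT. The predicted genes Gm3752 and Gm3667, the start of Syap1 and a gene-free run on chromosome 11 (chr11:104685617-104685647) completed the 8 largest mean differences in this direction, each with a CT mean between 37.8% and 49.7% and an E3 mean of at most 14.01%. Gm3752 and Gm3667 lie in a cluster of similar predicted genes on chromosome 14, and their reads can belong to another copy.

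Higher levels in E3 were found in the runs of Nnat and Smarca5. Nnat encodes neuronatin, a small membrane protein of neurons, and is imprinted, with the paternal copy active. Its 11 CpGs (chr2:157560499-157560548) had levels from 22.0% to 25.9% in E3 and from 0% to 2.50% in CT. The Smarca5 gene encodes the ATPase of ISWI chromatin remodelling complexes. The 8 CpGs at its start (chr8:80739462-80739555) had levels from 18.9% to 46.0% in E3 and from 0% to 2.56% in CT. In both runs each of the listed CpGs was higher in E3 than any of them in CT. The libraries did not overlap in 87 of the 111 runs, a count partly set by the listing.

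Other runs were higher in E3 as well. The gelsolin gene Gsn, whose protein cuts actin filaments, had 4 CpGs in its promoter with a mean of 33.4% in E3 and 0.455% in CT. Gemin8, a gene of the complex that assembles splicing particles, had 3 at 34.6% and 6.29%. The noncoding RNA gene 2810429I04Rik had 3 at 67.8% and 15.4%, and Tescl had 5 in coding sequence at 60.1% and 19.6%. A gene-free run on chromosome 13 (chr13:65259186-65259405) had 3 at 50.5% and 19.9%. Sipa1, the gene of a GTPase-activating protein for Rap, had 10 CpGs over its coding sequence (chr19:5654012-5654805), at 17.7% and 3.76%.

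Among runs with the most CpGs, Pigm (22 CpGs, enzyme of the membrane anchor GPI) and Actn1 (19 CpGs, the actin crosslinker α-actinin-1) were higher in E3 and Vcpkmt (14 CpGs, a protein lysine methyltransferase) was lower, at every CpG. A run of 8 gene-free CpGs on chromosome X (chrX:11999045-11999457) had levels from 0% to 2.99% in E3 and from 15.4% to 28.2% in CT. The run at the 5′ end of Frmpd3 (chrX:140277722-140278423) was mixed, with 10 CpGs lower and 3 higher. The 10 CpGs of Rn45s, a copy of the ribosomal RNA precursor, were split into 5 lower and 5 higher, and their reads can come from any copy of the ribosomal repeat.

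**Figure D4:**
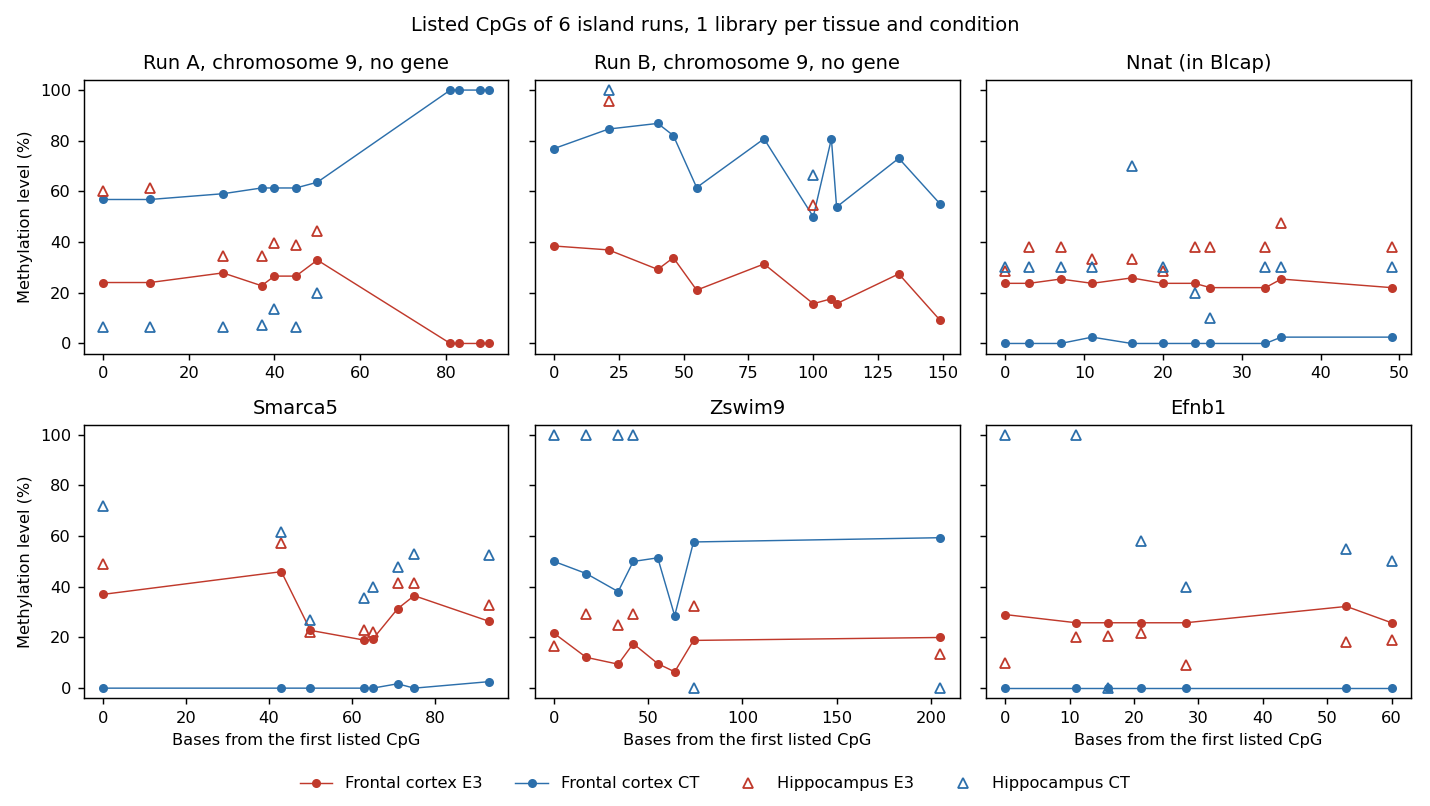
Methylation level (%) of each listed CpG against its distance in bases from the first listed CpG, for 6 island runs. Filled points joined by lines are the frontal cortex and open triangles the hippocampus, red for E3 and blue for CT, 1 library each. The frontal cortex libraries do not overlap in any of the 6 runs, as in 87 of the 111 runs. In run A the hippocampus shows the opposite order at its 7 measured sites.

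Genes were then read by list, each list being described by its listed CpGs beside the 80.7% of all members lower in E3. The 78 genes of homeobox and developmental transcription factors had 109 island CpGs, 89 lower and 20 higher in E3, and 56 of them lay within CCGG. Foxd3, a gene of neural crest cells, had 3 CpGs in its promoter at 0% in E3 and at a mean of 18.6% in CT. Nr2f1, which patterns the cortex, had 4 in an intron at 12.1% and 31.9%. Lhx2, a regulator of forebrain growth, went the other way, with 4 exonic CpGs (chr2:38354621-38354799) at 28.2% in E3 and 5.88% in CT.

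The 12 imprinted genes with island CpGs had 30 of them, 13 lower and 17 higher in E3, and the 11 CpGs of the Nnat run made up most of the higher ones. Cdkn1c, an inhibitor of cell division that is active from the maternal copy, had 4 CpGs at a mean of 10.7% in E3 and 22.8% in CT, 3 of them lower. Gnas, which encodes a G protein subunit, had 2 lower and 2 higher of 4 CpGs, with means of 27.4% and 31.2%. The 23 genes of DNA methylation and chromatin had 56, 46 lower and 10 higher. The X-linked corepressor gene Bcor held 24 of these, all lower, at 4.89% and 24.2%. Its relative Bcorl1 had 2, both at 0% in E3, with a mean of 41.7% in CT.

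Estrogen receptor genes had no island CpG in the list. Of their coregulators, Nrip1 had 2 CpGs in its promoter, at a mean of 2.41% in E3 and 28.7% in CT, and Ncoa4 had 1 at 0% and 21.7%, all 3 within CCGG. The study followed many brain genes, and Fos, Adora2a, Bdnf, Agrn and Drd2 were picked from them for this list. Among these picked genes Agrn alone had an island CpG, at 2.94% in E3 and 21.6% in CT. None of these sites was measured in the hippocampus with 5 reads in both libraries.

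Neurotransmitter receptor and axon guidance genes had 73.7% and 56% of their CpGs lower in E3, beside 80.7% of all island CpGs. More were higher than lower when CCGG sites were left out, where 66.2% of all island CpGs outside CCGG were lower. Many of these higher sites were neighbours that can share reads, 3 within 56 bases of Chrne and 7 within 61 bases of Efnb1. The 16 neurotransmitter receptor genes had 14 lower and 5 higher CpGs, and 2 lower and 5 higher when CCGG sites were left out. The adrenergic receptor gene Adra2c had 2 lower CpGs at a mean of 1.74% in E3 and 21.7% in CT, both within CCGG. The muscle acetylcholine receptor subunit gene Chrne had 3 higher CpGs at 31.6% and 9.68%, and the serotonin receptor gene Htr2c on chromosome X had 1 at 62.5% and 0%. The 15 axon guidance genes had 14 lower and 11 higher CpGs, and 2 lower and 10 higher without CCGG. Efnb1, the ephrin-B1 ligand gene on chromosome X, held 7 of the higher ones (chrX:99136603-99136663), with levels from 25.8% to 32.3% in E3 and 0% at all 7 in CT. Sema6c, a semaphorin gene, had 2 at 42.8% and 8.33%. Its relative Sema6b had 3 lower CpGs in an exon, at 19.4% and 50.3%.

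Voltage-gated channel genes had 17 lower CpGs and 1 higher, and 10 lower and 1 higher without CCGG. The potassium channel gene Kcnc1 had 3 at a mean of 4.58% in E3 and 18.9% in CT, and the calcium channel gene Cacna1a had 2 at 7.2% and 37.2%. The 21 genes of Wnt, BMP and hedgehog signalling had 22 lower and 6 higher CpGs, and 7 lower and 6 higher without CCGG. The Wnt inhibitor gene Sfrp2 had 2 lower at 8.82% and 45.7%, and the hedgehog receptor gene Ptch1 had 2 at 1.06% and 23.2%. The Wnt receptor gene Fzd2 had 1 lower and 3 higher. Cadherin and protocadherin genes had 9 lower and 3 higher, and 6 lower and 3 higher without CCGG, some shared by several overlapping protocadherin transcripts.

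All 8 island CpGs of 6 immediate early genes were lower in E3, 6 of them within CCGG. They included 3 of the nuclear receptor gene Nr4a2, at a mean of 7.93% in E3 and 34.3% in CT, and 1 in the promoter of Jund, at 0% and 46.2%. Housekeeping and ribosomal protein genes had 5 lower and 1 higher, among them Tbp at 0% and 22.2% and Rpl8 at 2.63% and 23.5%. The median over the 6 housekeeping CpGs was 0% in E3 and 20.5% in CT, and that over all island CpGs 3.23% and 20%.

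Cell type markers were thinly covered. The neuronal genes Gad2 and Slc17a7 had 1 lower CpG each, at 2.86% and 15.9% and at 4.05% and 16.4%. The oligodendrocyte gene Olig1 had 1 at 0% and 17.0%, and the astrocyte gene Gfap had 1 higher, at 16.4% and 0%. No microglia marker had an island CpG in the list. The share of each cell type in the libraries was not tested.

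The hippocampus offered a look at the same positions in data that had no part in the list. With at least 5 reads in both libraries 1381 of the 2434 island CpGs (56.7%) were measured, at a median of 25 reads in E3 and 11 in CT. There the means of the libraries were close, at 12.94% in E3 and 14% in CT, while 782 of the sites (56.6%) differed by less than 10 points. The frontal cortex means at these 1381 sites, which were listed for differing in that tissue, were 10.4% and 21.1%. At the 596 measured CpGs within CCGG the hippocampus means were 6.91% and 6.82% and the frontal cortex means 4.19% and 22.0%. At the other 785 they were 17.5% and 19.4% in the hippocampus. The medians over all 1381 were 7.41% in E3 and 0% in CT.

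Fisher's exact test was run at each of 1722586 hippocampus CpGs, and a call needed both 10 points between the libraries and an unadjusted p under 0.05. Of the 1381 island CpGs 198 (14.3%, Wilson interval 12.6% to 16.3%) were called, 131 lower and 67 higher in E3. The background was 12.1% of all hippocampus CpGs (5.36% lower and 6.73% higher) and 5.59% of those in CpG-rich windows (3.91% lower and 1.68% higher). Of the listed CpGs outside islands 32.9% were called. Among island CpGs within CCGG 28 of 596 were called (4.70%), and among the others 170 of 785 (21.7%). In CpG-rich windows of the hippocampus 6.30% of CpGs within CCGG and 5.51% of the others were called.

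The direction in the hippocampus was that of the frontal cortex at 108 of the 198 called CpGs (54.5%, interval 47.6% to 61.3%). With at least 20 reads in both libraries the share turned to 44.4% of 90. In detail, 85 were lower in both tissues and 23 higher in both. Another 44 were lower in the frontal cortex and higher in the hippocampus, and 46 the reverse. Outside islands the direction was shared at 49.1% of 1734. Within CCGG it was shared at 22 of 28, and elsewhere at 86 of 170 (50.6%). Since most called CpGs in CpG-rich windows of the hippocampus were lower in E3 (69.9%, and 77.5% within CCGG), and nearly all CCGG sites of the list were lower, a count of shared directions is partly set by these shares.

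**Figure D5:**
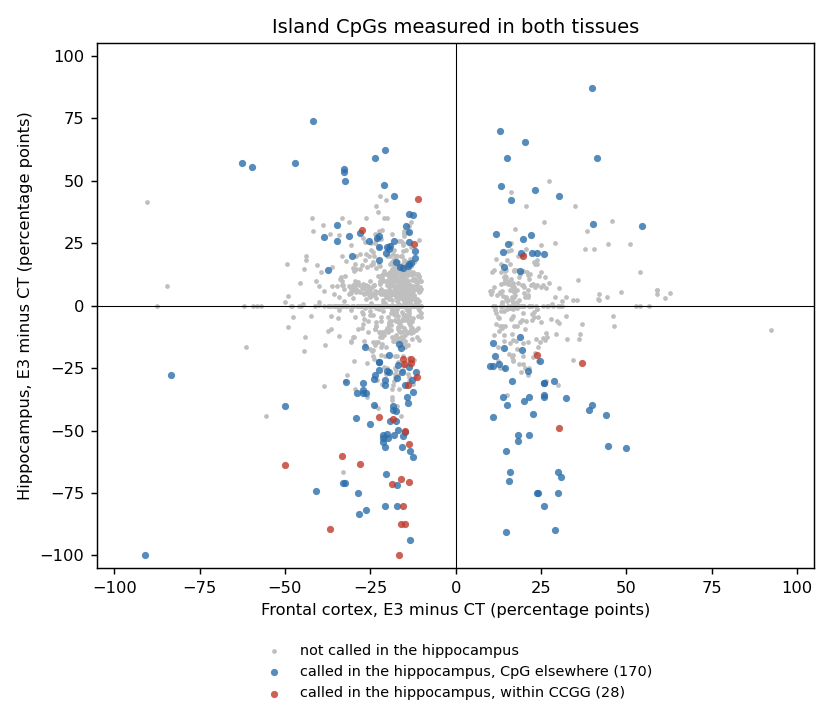
Each point is 1 of the 1381 island CpGs measured in both tissues, with the difference E3 minus CT in percentage points in the frontal cortex (horizontal) and in the hippocampus (vertical). Of the coloured points, called in the hippocampus by Fisher's exact test, 108 have differences of the same sign in both tissues and 90 of opposite signs, and 24 of the 28 red points (CCGG) lie below 0 on the vertical axis.

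A few sites were lower in E3 in both tissues by a wide margin. Mad2l1, a gene of the spindle checkpoint, had a CpG within CCGG in its 5′ untranslated region (chr6:66535448) at 5.36% in E3 and 42.1% in CT in the frontal cortex. In the hippocampus it was methylated in 1 of 44 reads in E3 and in 11 of 12 in CT (p = 9.5e-10, Fisher's exact test). Tuba3a, an α-tubulin gene, had a CpG near its start (chr6:125286004) at 0% and 90.9%, and in the hippocampus at 0 of 8 reads and 6 of 6 (p = 0.00033, Fisher's exact test). A CpG of the gene-free run on chromosome 11 (chr11:104685617) was at 19.5% and 60.5%, and in the hippocampus at 8 of 31 reads and 8 of 8 (p = 0.00021, Fisher's exact test). Sbk1 (chr7:126292682), a CpG within the 5′ untranslated region of the potassium channel gene Kcnj4 (chr15:79511757) and a gene-free CpG (chr9:78427544) were the other lower sites.

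Higher in E3 in both tissues were single CpGs in coding sequence of Wnt7b, Uhrf1bp1, Camk2b and Tradd and 2 gene-free CpGs. The Wnt ligand gene Wnt7b (chr15:85543773) was at 41.5% in E3 and 0% in CT, and in the hippocampus at 13 of 22 reads and 0 of 11 (p = 0.0016, Fisher's exact test). Uhrf1bp1 (chr17:27887501) was at 40% and 0%, and in the hippocampus at 20 of 23 reads and 0 of 8 (p = 2.1e-05, Fisher's exact test). Camk2b (chr11:5972377), which encodes a subunit of the synaptic kinase CaMKII, was at 83.8% and 43.4%, and in the hippocampus at 84.8% of 46 reads and 52.2% of 23 (p = 0.0075, Fisher's exact test). Tradd (chr8:105259098), an adaptor of the TNF receptor, rested on 6 reads in CT. After Benjamini-Hochberg adjustment over all hippocampus CpGs 78 of the 198 calls held, among them those of Mad2l1, Tuba3a, Wnt7b and Uhrf1bp1 and not that of Camk2b (adjusted p = 0.12 from Fisher's exact test).

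Other wide differences went in opposite directions. Bcl11b, a transcription factor gene of cortical projection neurons, had an exonic CpG (chr12:107916669) at 83.2% in E3 and 33.3% in CT, and in the hippocampus at 2 of 11 reads and 24 of 32 (p = 0.0028, Fisher's exact test). A pair of exonic CpGs in Pxdn, the gene of an extracellular matrix peroxidase, were at 0% in E3 and at 47.1% and 41.7% in CT, and in the hippocampus at 57.1% and 73.9% in E3 and at 0% in CT. Pcdh7, Col6a2, Tescl, Slc10a3 and a gene-free CpG of chromosome 12 (73 bases from the start of LOC108167983) completed the 8 sites named for opposite directions. After Benjamini-Hochberg adjustment the calls of Bcl11b, Col6a2, Pcdh7 and Tescl were lost (adjusted p from 0.063 to 0.38, Fisher's exact test), and both of Pxdn held.

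Hippocampus CpGs, listed or not, were measured in the span of 95 of the 111 runs. Of these 1675 CpGs 331 (19.8%) were called, 177 in the direction of the run's mean difference in the frontal cortex and 154 in the other. The background was 12.1% of all hippocampus CpGs, 5.59% of those in CpG-rich windows and 20.5% of X CpGs in such windows. Chromosome X held 36 of the 111 runs. In 28 runs none was called. At least 1 CpG was called in the run's direction in 53 runs and in the other direction in 45, and a run can count in both. In the Mad2l1 run, lower in E3 in the frontal cortex, all 7 CpGs were called lower in the hippocampus. Their means there were 2.08% in E3 and 42.5% in CT. In the Ccdc183 run, also lower in the frontal cortex, 8 of 13 were called lower and none higher, at 18.6% and 56.4%. In run A, lower in E3 in the frontal cortex, 10 of 13 measured hippocampus CpGs were called higher, at means of 46.2% in E3 and 11.7% in CT. The 13 CpGs had 18 to 49 reads in E3 and 9 to 30 in CT. At the listed ones that were called, Benjamini-Hochberg adjusted p ran from 0.026 to 0.24 (Fisher's exact test). In the Efnb1 run all 7 listed CpGs were called in the hippocampus, 6 lower and 1 higher in E3, at 17.0% and 57.6%, where the frontal cortex was higher in E3 at all 7. The libraries had as few as 10 reads in E3 and 6 in CT there, and 1 of the 7 calls held after Benjamini-Hochberg adjustment. At the Smarca5 start 4 of 8 CpGs were called lower, at 36.2% and 48.6%, and 1 of these calls held after adjustment. In the Nnat run the hippocampus levels of 36.4% and 30.9% had 1 call in each direction. Neither of these calls held after adjustment (adjusted p of 0.18 and 0.33, Fisher's exact test). In the Nnat run the mean was 23.8% in the frontal cortex of E3 and 0.682% in that of CT, so that the frontal cortex CT library was the low one of the 4. The same library was the low one over the Smarca5 run, at 0.536%. Other runs had the frontal cortex E3 library apart. Over the Pigm run it was the high one, at 43.3% (CT 0.894%, hippocampus 4.34% in E3 and 0.915% in CT). Over the Vcpkmt run it was the low one, at 0.936% (CT 22.9%, hippocampus 48.5% in E3 and 44.1% in CT).

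Chromosome X held 318 of the island CpGs (13.1%) and 502 of the 9731 listed CpGs. Of the listed CpGs on X 63.3% were island CpGs. Only 9.43% of the X members lay within CCGG, and 79.2% were lower in E3, at means of 11.1% in E3 and 23.9% in CT. In the hippocampus the 195 measured X members had means of 19.6% and 24.1%, and 48 (24.6%) were called, beside a background of 20.5% for X CpGs in CpG-rich windows. These windows had hippocampus means of 42.1% and 43.9% on X and 11.8% and 11.9% on autosomes. The direction was shared at 26 of the 48.

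Cytosines outside CpGs were also listed in islands, 131 of 4811 CHG sites and 245 of 13898 CHH sites. Of the CHG sites 102 were lower and 29 higher in E3 (8.19% against 19.5% on average), and of the CHH sites 192 and 53 (5.53% and 19.04%). The shares lower, 77.9% and 78.4%, stood beside 79.6% and 75.2% for CHG and CHH sites outside islands. The outer cytosine of CCGG accounted for 26 of the 131 CHG sites.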

How the data were processed

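DNA methylation was measured by Methyl-MiniSeq, in which DNA is cut with TaqαI and MspI, size-selected, treated with bisulfite and sequenced. The study's methods name TrimGalore, FastQC, Bismark with mm10 and MethylDackel. For the frontal cortex the authors deposited the methylated fraction of each library at called sites only, with marks for gene parts and islands. Their p-values, adjusted p-values and differences were not used, and the depth is unknown. For the hippocampus the deposited tables hold total read counts and the methylated fraction of the sites they list. The study's methods tested sites with at least 5 reads. Methylated counts were rebuilt as fraction times total, rounded, and both strands of a CpG were summed where both were listed. The hippocampus CHG and CHH tables were not used.

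Levels are percentages of reads. A hippocampus CpG needed 5 reads in both libraries and was tested with a 2-sided Fisher's exact test, in which reads count as independent molecules. The test was checked on simulated reads that were independent, so the check does not cover reads that are not. Nearby CpGs of Mad2l1 had 7 of 20 and 14 of 40 methylated reads in CT. Whether molecules were counted more than once was not tested. Intervals are 95% Wilson intervals and cover counting error only. Positions, gene parts and sequences were read from GRCm38.p6 and RefSeq, and gene names from the deposited columns, in which 8 entries for members had turned into dates and were dropped. Numbers came from Python 3.11.15 with numpy 2.4.6, scipy 1.17.1, pandas 2.3.3 and numba 0.67.0, and plots from matplotlib 3.10.9.

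The design had allowed for named islands. The deposited mark is a flag, so CpGs at most 500 bases apart formed a run. Named were the 12 runs with the most members and the 8 largest mean differences in each direction among runs of at least 3. Also named were sites called in both tissues with the largest smaller-of-both difference (6 per direction when shared, 4 when opposite). Up to 4 genes per list with the most sites and the brain genes picked from the study completed the set. Members and lists were chosen with earlier results of these data known.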

Additional observations from a re-analysis of the deposited data

Results flagged for a closer look

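The tissues went in opposite directions at 90 of the 198 island CpGs called in the hippocampus. With 1 library per group this difference was not tested, here or at the runs and sites that follow. Values below are hippocampus E3 minus CT in percentage points. Runs in which the tissues went the same way, such as that of Mad2l1, are left out of this section. In 8 runs the mean over the listed CpGs of the frontal cortex was higher in E3, at least 3 hippocampus CpGs of the span, listed or not, were called lower and none higher. The mean over the hippocampus CpGs of the span was -59.6 for Actn1 and -33.0 for a gene-free run on chromosome 12. That run lies 34 bases from the start of LOC108167983. The mean was -15.6 for Ofd1 and Trappc2, -15.5 for Gm13034, -12.5 for Smarca5, -10.8 for Sipa1, -8.77 for Plcd3 and -8.18 for F8a. The Actn1 value rested on 4 CpGs, with 10 to 16 reads in E3 and 8 to 9 in CT. Its 3 called CpGs had the same counts, 4 of 16 reads in E3 and 8 of 8 in CT. In the reverse case the mean was 34.5 for run A on chromosome 9, 15.8 for Syap1, 12.0 for the neurexin gene Nrxn2 and 0.845 for Cdkn1c, in which 3 of 42 CpGs were called higher. The frontal cortex was itself mixed in 4 of these runs, with 1 lower and 2 higher CpGs in F8a, 1 and 3 in Ofd1 and Trappc2, 2 and 1 in Nrxn2 and 3 and 1 in Cdkn1c. At the listed CpGs alone 3 runs went the other way in the hippocampus, in the direction of the frontal cortex mean. The 2 measured in Sipa1 were at 10.9% in E3 and 0% in CT, the 3 in F8a at 35.3% and 22.1%, and the 3 in Cdkn1c at 23.6% and 33.9%, and none of them was called. The 1 measured in Nrxn2 was higher in E3 in both tissues, at 20.3% and 2.13% in the frontal cortex and 8.89% and 0% in the hippocampus, and was not called. None of the listed CpGs of Plcd3, Syap1 or Ofd1 and Trappc2 was called either.

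The single sites named for opposite directions were -56.8 in Bcl11b, -56.2 at a gene-free CpG of chromosome 12, -43.9 in Tescl and -40.0 in Slc10a3, all higher in E3 in the frontal cortex. Those lower there were 73.9 and 57.1 in Pxdn, 57.1 in Col6a2 and 55.6 in Pcdh7.

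Outside the CpG comparison the frontal cortex list held 131 CHG and 245 CHH sites in islands, a signal in data that the other comparisons did not use. Among sites chosen after their values were seen, a CHG site of Hnrnpa0 was at 100% in E3 and 0% in CT, and a CHH site of the estrogen receptor gene Esr1 (chr10:4712389) was at 0% in E3 and 57.1% in CT. The background level of CHG and CHH methylation in the frontal cortex was not analysed here.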

How the results depend on the processing

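No paired analysis was possible because each tissue had 1 library per group. The number of reads behind the frontal cortex levels is unknown, and the shallower hippocampus library had a median of 11 reads at island CpGs. The share of island CpGs lower in the frontal cortex of E3 was 80.7%. It was 85.7% with each run counted once, 78.9% at differences of at least 25 points, 78.7% without sites at 0% in a library, and 80.9% on autosomes. Leaving out CpGs within CCGG, an alternative chosen after the data were seen, gave 66.2% and moved the mean difference (E3 minus CT) from -13.7 to -8.01 points. It changed by less than 1.5 times when runs were counted once, medians were used or autosomes were taken alone.

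Hippocampus calls at island CpGs moved from 14.3% to 19.7% and 30.3% with at least 10 and 20 reads (background 14.7% and 17.5% of all CpGs). They were 10.8% at 25 points (background 9.78%), 5.65% after Benjamini-Hochberg adjustment (3.94%), 12.6% on autosomes and 21.7% without CCGG. The share with the same direction in both tissues was 54.5%. It turned to 44.4% of 90 CpGs with at least 20 reads, was 50.0% with at least 10 and 50.6% without CCGG, and lay between 57.0% and 61.3% under the other 4 alternatives. The cause was not tested.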
